A study of Mus musculus with 15 samples.

Results

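The genes of oxidative phosphorylation were examined in mouse embryonic stem cells: 90 genes of 22035 in the gene table, taken as every symbol that begins with Nduf, Uqcr, Cox4 to Cox8 or Atp5, together with Sdha, Sdhb, Sdhc and Sdhd. Of these 90, 87 also had a window in the table of start sites, out of 25727 genes there. The symbols hold 36 subunits of complex I, 4 assembly factors of complex I, 4 subunits of complex II, 8 of complex III, 11 common subunits of complex IV, 8 tissue-specific isoforms, 15 subunits of ATP synthase and 4 other genes (Cox7a2l, a factor of supercomplexes; Cox4nb, whose protein belongs to a complex of the endoplasmic reticulum; Atp5s; and Atp5sl). They lie on 19 chromosomes, with Cox7b, Ndufa1 and Ndufb11 on the X chromosome.

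All cells were of 1 line, the male wild-type TT2 embryonic stem cell line, derived from the inner cell mass of a C57BL/6 x CBA blastocyst. Histone marks were profiled by native chromatin immunoprecipitation, in which chromatin is not crosslinked, from decreasing numbers of sorted cells: H3K4me3 from 100000, 10000 and 5000 cells, H3K27me3 from 100000, 10000 and 1000 cells, and H3K9me3 from 1000000, 100000, 10000 and 1000 cells. Total histone H3 (panH3) was profiled from 1000 cells, and total RNA depleted of ribosomal RNA was sequenced from 1000 cells. H3K9me3 at 1000 cells had 3 libraries and panH3 had 2, while each of the other 10 groups had 1, so their values carry no replicate error and no test.

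Oxidative phosphorylation takes place in the inner mitochondrial membrane. Complexes I and II pass electrons from NADH and succinate to ubiquinone, complex III passes them on to cytochrome c, complex IV reduces oxygen, and ATP synthase uses the resulting proton gradient to make ATP. The genes described here are nuclear; the mitochondrial genome encodes further subunits of complexes I, III, IV and ATP synthase. Several complex IV subunits exist as a common form and a form found mainly in heart and skeletal muscle, lung or testis. H3K4me3 marks active promoters, H3K27me3 is laid down by Polycomb repressive complex 2, and H3K9me3 marks heterochromatin.

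The labelled cell type was checked against marker genes. Of the 9 pluripotency markers measured, 9 had RNA of at least 1 RPKM, from 15.0 (Klf4) to 221.8 (Zfp42). Of 11 fibroblast and feeder markers, 1 reached 1 RPKM (Thy1, 1.79) and 4 were listed at 0. Striated muscle markers reached it in 2 of 15 (Actn2, 4.84, and Ttn, 1.59) and testis markers in 2 of 11 (Ddx4, 3.73, and Acrv1, 1.04). Whether traces of other cells contributed to low values of the isoforms below was not tested; in bulk RNA, fewer cells of a type and less RNA per cell cannot be told apart.

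Promoters of the genes are shown first for 3 pairs of a common and a tissue-specific form, since they show a pair split by H3K4me3, a pair with even H3K4me3, and a pair in which RNA and H3K4me3 differ. Each line gives the 250 bases before the annotated RefSeq start (GRCm38.p6), 5′ to 3′ on the strand of the gene, with CpG dinucleotides in capitals. Cox8a and Cox8b are the common and the heart and muscle form of subunit 8, Cox6b1 and Cox6b2 the common and the testis form of subunit 6B, and Cox7b and Cox7b2 the common form and a second copy of subunit 7B.
Cox8a (chr19:7217617-7217866, minus strand): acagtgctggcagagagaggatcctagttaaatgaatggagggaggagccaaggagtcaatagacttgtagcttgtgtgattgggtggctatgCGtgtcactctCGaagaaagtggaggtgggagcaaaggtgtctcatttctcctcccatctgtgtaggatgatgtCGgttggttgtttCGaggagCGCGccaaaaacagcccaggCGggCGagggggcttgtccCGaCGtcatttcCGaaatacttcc
Cox8b (chr7:140900447-140900696, minus strand): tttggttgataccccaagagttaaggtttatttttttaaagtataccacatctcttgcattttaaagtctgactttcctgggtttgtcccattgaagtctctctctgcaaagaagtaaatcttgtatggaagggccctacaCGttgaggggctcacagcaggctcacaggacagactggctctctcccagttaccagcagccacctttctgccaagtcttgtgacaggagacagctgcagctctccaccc
Cox6b1 (chr7:30626115-30626364, minus strand): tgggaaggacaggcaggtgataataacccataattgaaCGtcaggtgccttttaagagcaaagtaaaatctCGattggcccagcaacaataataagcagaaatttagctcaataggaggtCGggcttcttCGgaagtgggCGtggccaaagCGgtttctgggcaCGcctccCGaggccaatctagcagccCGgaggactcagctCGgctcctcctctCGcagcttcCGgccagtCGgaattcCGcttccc
Cox6b2 (chr7:4753095-4753344, minus strand): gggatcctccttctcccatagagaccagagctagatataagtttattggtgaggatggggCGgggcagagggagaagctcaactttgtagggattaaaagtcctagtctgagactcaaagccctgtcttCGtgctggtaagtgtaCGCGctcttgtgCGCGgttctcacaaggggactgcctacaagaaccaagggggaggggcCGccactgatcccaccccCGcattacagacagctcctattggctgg
Cox7b (chrX:106015450-106015699, plus strand): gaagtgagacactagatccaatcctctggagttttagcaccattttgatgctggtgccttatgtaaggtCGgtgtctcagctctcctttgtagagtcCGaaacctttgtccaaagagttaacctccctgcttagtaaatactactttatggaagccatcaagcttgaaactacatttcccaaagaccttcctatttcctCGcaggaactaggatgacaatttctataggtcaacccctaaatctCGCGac
Cox7b2 (chr5:71548206-71548455, minus strand): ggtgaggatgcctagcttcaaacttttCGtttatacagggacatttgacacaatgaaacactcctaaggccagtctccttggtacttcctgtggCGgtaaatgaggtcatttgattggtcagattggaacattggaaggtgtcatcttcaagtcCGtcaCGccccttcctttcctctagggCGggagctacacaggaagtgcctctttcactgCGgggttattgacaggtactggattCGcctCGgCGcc
The shown promoter of Cox8a held 11 CpG and that of Cox8b 1. Cox6b1 had 14 and Cox6b2 had 8. In the third pair the order was the other way, with 5 CpG in Cox7b and 9 in Cox7b2. RefSeq promoters were found for 74 of the 90 genes (3 by a newer symbol), in 80 promoters. The median was 15 CpG in the 76 promoters outside the tissue-specific isoforms, 18 in promoters of genes with H3K4me3 of at least 2 RPKM at 100000 cells, and 6 over all 32851 promoters.

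Motifs of 3 factors known to act on respiratory chain genes were searched on both strands of the 300-base promoters, which run to 50 bases after the start. The NRF1 letters GCGCANGCG, with N for any base, were in 27.5% of the 80 promoters, 13.7% of promoters of genes with H3K4me3 of at least 2 RPKM and 6.25% of all promoters. The ETS letters CCGGAAG, read by GABPA among others, were in 21.2%, 17.6% and 8.86% of these sets in turn. The YY1 letters AAGATGGCG were in 11.2%, 3.04% and 1.4%. Of the 9 member promoters (8 genes) that held them, 7 had a match that began 22 to 35 bases after the start. Both promoters of Atp5sl held the same site. The GC box GGGCGG was in 42.5%, 67% and 35.7%, so it was less frequent in these genes than in the marked genes as a whole. The letters TATAAA were in 10%, 6% and 13.6%. In 1 member promoter an ETS match and a GC box shared bases, and no other 2 motifs did. A match of letters describes the sequence only and does not show that a factor binds there.

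RNA was measured as RPKM, reads scaled to exon length and to library depth, in the library of 1000 cells. The genes had a median of 14.7 RPKM, against 1.02 over all genes, and 82 of 90 reached 1 RPKM, against 50.2% of all genes. Outside the tissue-specific isoforms 80 of 82 did. By complex, the medians were 13.8 RPKM in complex I, 25.6 in complex II, 20.9 in complex III, 22.5 in the common subunits of complex IV and 18.9 in ATP synthase. The 4 assembly factors had a median of 4.91 and the 8 tissue-specific isoforms of 0.785. With 1 library these medians have no error, and the ranges of the 5 complexes overlapped.

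**Figure D1:**
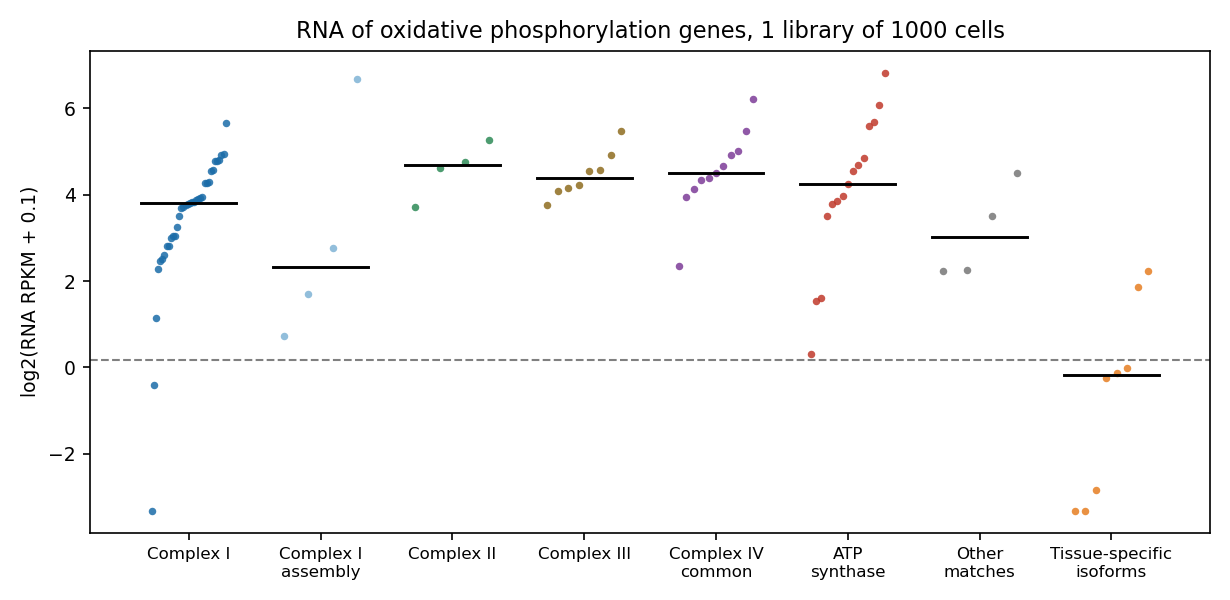
RNA of the 90 genes in the library of 1000 cells, as log2(RPKM + 0.1), by complex. Each point is a gene, ordered by level within its group, solid bars are group medians and the dashed line is the median of all genes (1.02 RPKM). Most subunits lie above the dashed line, and the tissue-specific isoforms have a median of 0.785 RPKM.

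In ATP synthase the highest values were those of the catalytic head: 113.2 RPKM for Atp5b, the beta subunit (mm9 chr10:127520360-127527440), and 67.5 for Atp5a1, the alpha subunit. Atp5c1, the gamma subunit of the central shaft, had 51.4. The 3 genes Atp5g1, Atp5g2 and Atp5g3 encode the same mature subunit c of the membrane ring and had 15.6, 18.9 and 48.3 RPKM. The lowest were Atp5k (subunit e) at 1.14, Atp5j (coupling factor 6) at 2.79 and Atp5f1 (subunit b of the stator) at 2.96. Subunits that share 1 complex thus ranged from 1.14 to 113.2 RPKM.

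In complex I the nuclear core subunits reported here ran from 5.97 RPKM (Ndufs8) to 23.4 (Ndufs1, the largest iron-sulphur subunit), with 13.7 for Ndufv1, which binds NADH. The highest values belonged to the accessory subunits Ndufa7 (50.5) and Ndufb3 (30.6). The lowest were Ndufb11, listed at 0, and Ndufa13, at 0.65. Among the assembly factors Ndufaf2 stood at 102.15 RPKM, while Ndufaf1, Ndufaf4 and Ndufaf3 had 6.67, 3.15 and 1.55.

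In complex II, succinate dehydrogenase, Sdhc had 38.5, Sdhd 26.9, Sdha (the flavoprotein) 24.4 and Sdhb (the iron-sulphur protein) 12.9 RPKM. Complex III ran from 13.4 for the core protein Uqcrc2 and 16.8 for Uqcr11 to 30.4 for Uqcr10 and 44.4 for Uqcrq. The common subunits of complex IV ran from 5.01 (Cox5b) and 15.3 (Cox7a2) to 44.5 (Cox6a1) and 73.7 (Cox4i1). The other 4 genes had 22.4 (Cox7a2l), 11.3 (Cox4nb), 4.68 (Atp5s) and 4.56 (Atp5sl). Complexes II, III and IV held no common subunit under 5 RPKM.

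RefSeq names pseudogenes after 9 of the genes, whose reads may map to more than 1 place: 4 after Atp5k, 2 each after Atp5l and Uqcrh, and 1 each after Atp5c1, Cox5b, Cox7c, Ndufa12, Ndufab1 and Ndufs5. Their RNA was low in some and high in others: Atp5k, Ndufs5, Cox5b and Atp5l had 1.14, 4.77, 5.01 and 11.2 RPKM, and Ndufab1, Cox7c, Uqcrh, Ndufa12 and Atp5c1 had 15.3, 20.7, 23.2, 27.5 and 51.4. Pseudogenes that carry other names were not searched for, in these or in the other genes. The counting of reads that map to more than 1 place is not described in the labels, and their part in these values was not tested.

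H3K4me3 was given per window of 1 kb, and the window with the highest mean over the 3 libraries stood for a gene. At 100000 cells 43 of 87 genes had at least 5 RPKM, against 21.4% of all genes, and 79 had at least 2, against 43.7%. The 8 under 2 RPKM were 7 tissue-specific isoforms and the assembly factor Ndufaf4 (1.69 RPKM at 100000, 15.0 at 10000 and 4.31 at 5000 cells). The median over the genes was 4.94, 32.8 and 16.2 RPKM at 100000, 10000 and 5000 cells. All genes with RNA of at least 1 RPKM had 4.58, 24.4 and 10.8, close to these at 100000 cells. The libraries held about 16.6, 1.07 and 1.86 M counted reads, estimated from the steps in their values, so that 1 read is worth 0.0602, 0.938 and 0.539 RPKM.

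**Figure D2:**
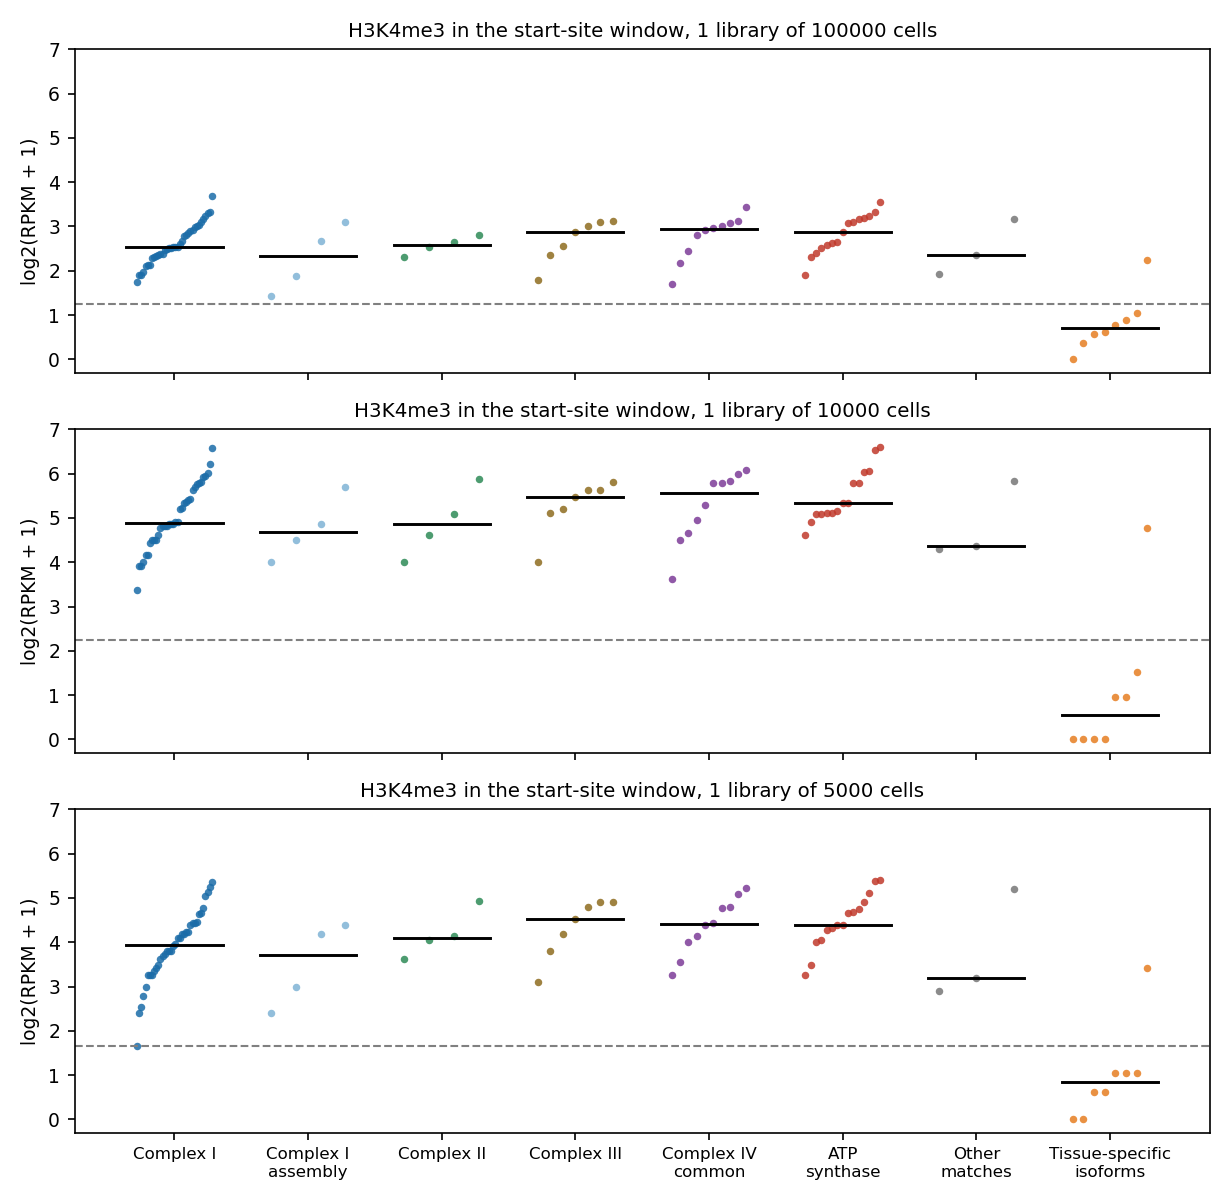
H3K4me3 in the start-site window of the 87 genes, as log2(RPKM + 1), by complex, in the libraries of 100000, 10000 and 5000 cells. Each point is a gene, solid bars are group medians and dashed lines are medians of all genes (1.39, 3.75 and 2.15 RPKM). At each cell number 7 of the 8 tissue-specific isoforms lie below the dashed line.

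By complex the medians at 100000, 10000 and 5000 cells were 4.76, 28.6 and 14.3 RPKM in complex I and 5, 28.1 and 16.2 in complex II. They were 6.38, 43.1 and 22.1 in complex III, 6.69, 46.4 and 20.2 in the common subunits of complex IV, and 6.32, 39.4 and 19.9 in ATP synthase. Complexes III, IV and ATP synthase were thus above complexes I and II in each of the 3 libraries, but single genes overlapped, with 2.35 to 11.99 RPKM in complex I and 2.23 to 9.88 in complex IV at 100000 cells.

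The highest window at 100000 cells was that of Ndufs1, with 11.99 RPKM at 100000, 93.8 at 10000 and 39.9 at 5000 cells. Atp5b had 10.8, 96.6 and 40.4, above Ndufs1 at 10000 and 5000 cells, and Cox6c, a small subunit of complex IV, 9.88, 66.6 and 36.6. Atp5j had 9.03, 64.7 and 33.4, and Ndufa6 (an accessory subunit of complex I) 9.03, 54.4 and 20.5. All 5 exceeded the upper quartile of the 87 genes at 10000 cells (52.0 RPKM), and all but Ndufa6 did at 5000 cells (24.0). The rank correlation over the 87 genes (Spearman) was 0.87 between 100000 and 10000 cells and 0.89 between 100000 and 5000 cells. The points share their windows and cell line, and the value describes these libraries only.

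No window of the start-site table exceeded 49.2, 99.4 and 49.6 RPKM in the 3 libraries, so windows above these levels appear to be left out. Cox4i1, Cox4nb and Uqcrq had no window of their own. Cox4i1 and Cox4nb start 176 bases apart on opposite strands, and no window lay within 1 kb of either start. Within 1 kb of the start of Uqcrq, a ubiquinone-binding subunit of complex III, lay a window of the oocyte gene Gdf9, with 11.02 RPKM at 100000, 86.3 at 10000 and 43.6 at 5000 cells.

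Of the 87 genes, 67 had at least 2-fold more H3K4me3 at 5000 than at 100000 cells on the log2(RPKM + 1) scale, against 28.3% of all genes, and 1 had at least 2-fold less, against 1.18%. The median difference was 1.42 (log2) in these genes and 0.46 over all genes. All genes include many with little H3K4me3 (median 1.39 RPKM at 100000 cells), where the added 1 RPKM damps a fold. Genes with RNA of at least 1 RPKM also had more at 5000 cells, with medians of 4.58 and 10.8 RPKM at 100000 and 5000 cells. The members had 4.94 and 16.2, and the 2-fold share among marked genes was not counted. With each library centred on its median, 44 genes were past 2-fold, against 14.2% of all genes. The gain was largest for Atp5g2, at 2.77 RPKM with 100000, 39.4 with 10000 and 19.9 with 5000 cells (2.47). It was 2.41 for Ndufs7 (2.95, 28.1 and 19.9 RPKM), 2.27 for Cox6a1, 2.21 for Atp5f1 and 2.14 for Sdhd. At the other end, Ndufa3 had 2.77, 14.1 and 2.15 RPKM and Ndufa1 4.04, 20.6 and 4.31, so that the 5000-cell values of both stayed near those of 100000 cells. Cell number, depth and library cannot be told apart here, with 1 library for each.

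H3K4me3 was compared within genes that have more than 1 window. In 30 genes, 62 windows lay at least 1 kb from the best window. The median level of the best windows was 4.88, 38.0 and 17.5 RPKM at 100000, 10000 and 5000 cells, and that of the distant ones 0.60, 0 and 0.54. Since the best window was picked for its level, the gap is a description. In 1 gene, Atp5d (the delta subunit of ATP synthase), a distant window was higher than the best one at 100000 cells, at 6.38 against 4.70 RPKM.

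**Figure D3:**
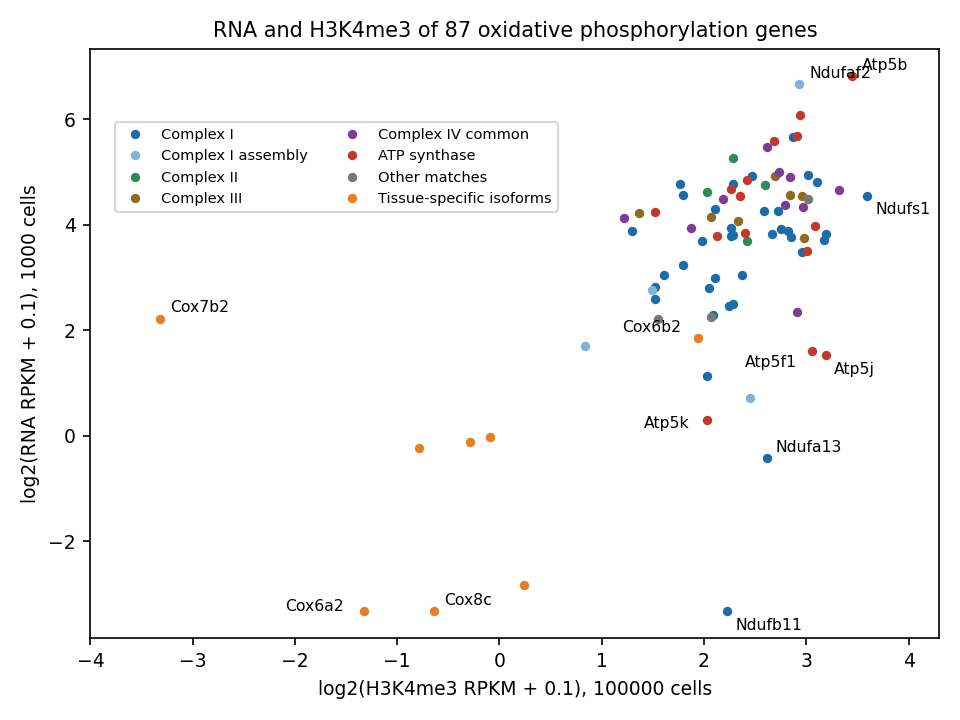
RNA at 1000 cells against H3K4me3 at 100000 cells for the 87 genes with a window, both as log2(RPKM + 0.1), coloured by complex, with the names of genes described in the text. Most subunits form 1 group at the upper right, Ndufb11 and Ndufa13 lie below it, and Cox7b2 has RNA with no H3K4me3 read.

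RNA and H3K4me3 did not go together in every gene. Of the 79 genes with H3K4me3 of at least 2 RPKM at 100000 cells, 7 had RNA under 3 RPKM (8.86%), against 32.9% of all genes with that much H3K4me3. Ndufb11, an X-linked membrane-arm subunit of complex I, was listed at 0 RNA with 4.58, 27.2 and 11.9 RPKM of H3K4me3 at 100000, 10000 and 5000 cells. Ndufa13 had 0.65 RPKM of RNA and 6.02, 27.2 and 17.2 of H3K4me3. The other 5 were Atp5k, the assembly factor Ndufaf3, Ndufa11, Atp5j and Atp5f1. Atp5f1 carried 8.19, 91.9 and 41.5 RPKM of H3K4me3, at 10000 cells close to Atp5b, with 2.96 against 113.2 RPKM of RNA. The rank correlation of H3K4me3 at 100000 cells with RNA was 0.48 over the 87 genes and 0.33 over the 79 outside the tissue-specific isoforms, against 0.76 over 20317 genes. These values cover unlike ranges, since all genes include silent and unmarked ones. Lower quartiles were 8.5 RPKM of RNA and 4.1 of H3K4me3 outside the isoforms, against 0.03 and 0.42 over all genes. A narrower range can lower a rank correlation, and its part here was not tested.

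A window of 1 kb can cover the starts of neighbouring genes on opposite strands. Such a partner, upstream or shortly inside the gene, started within 1 kb of 25 of the 87 genes (28.7%). The shares were 13.8% of all genes and 24.7% of genes with H3K4me3 of at least 2 RPKM at 100000 cells. Pairs that face away from each other and pairs that overlap at their starts were not counted apart. Ndufb11 starts 3 bases from Rbm10, which codes for an RNA-binding protein and had 8.05 RPKM of RNA. Atp5f1 starts 93 bases from Wdr77, at 20.3 RPKM, and Atp5j 79 bases from Gabpa, at 20.1. Ndufa7 starts 29 bases from the ribosomal protein gene Rps28, at 15.2. Starts here are the centres of the windows, and the windows of these pairs hold both, so their H3K4me3 cannot be assigned to 1 gene. In 82 of the 87 genes the window also held the start of the transcript whose RNA was taken; the exceptions were Atp5f1, Atp5h, Atp5j, Cox4i2 and Cox6c. The window nearest that transcript's start had 7.65, 74.1 and 36.6 RPKM at 100000, 10000 and 5000 cells for Atp5f1, 9.34, 52.5 and 29.6 for Atp5j, 7.47, 54.4 and 31.2 for Cox6c, and 0.90, 0.94 and 0 for Cox4i2. The 25 genes had medians of 15.1 RPKM of RNA and 5.96 of H3K4me3 at 100000 cells, and 54 others outside the isoforms 15.4 and 5.12.

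Tissue-specific isoforms had less RNA than their common counterparts in 8 of 8 pairs. Cox4i1, the common form of subunit 4, had 73.7 RPKM and the lung form Cox4i2 0.75, a ratio of 98.3. Cox8a had 29.9 RPKM and the muscle form Cox8b 0.89, a ratio of 33.6, while Cox8c, a testis form, was listed at 0. Cox7a2 had 15.3 RPKM and the muscle form Cox7a1 0.82, a ratio of 18.6. Cox6a1 had 44.5 RPKM, and the muscle form Cox6a2 was listed at 0. Ndufa4, a subunit of complex IV despite its name, had 32.0 RPKM and its hypoxia-induced paralogue Ndufa4l2 0.04. The gap was smallest for Cox7b2 and Cox6b2, with 4.57 RPKM against 17.5 for Cox7b and 3.52 against 22.5 for Cox6b1. These 2 were the isoforms with at least 1 RPKM.

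**Figure D4:**
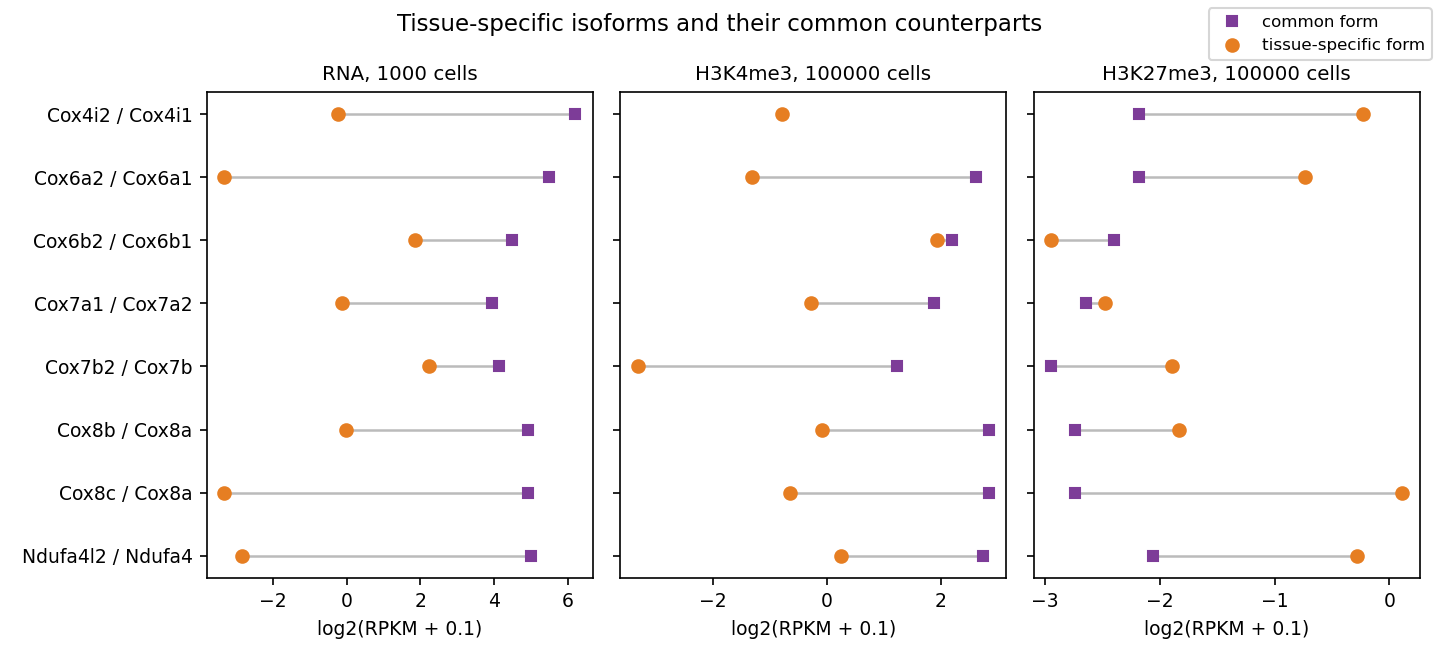
RNA (1000 cells), H3K4me3 and H3K27me3 (100000 cells) of 8 pairs of a tissue-specific form (circle) and its common counterpart (square), as log2(RPKM + 0.1). RNA is lower in the tissue-specific form in 8 of 8 pairs, Cox6b2 has nearly the H3K4me3 of Cox6b1, and Cox4i1 has no start-site window.

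H3K4me3 could be compared in 7 of these pairs, since Cox4i1 had no window, and was lower in the tissue-specific form in all of them except that of Cox6b2, whose values were close to those of Cox6b1. Cox8a had 7.05 RPKM (117 reads, exact Poisson 95% interval 5.83 to 8.44) at 100000 cells, 30.0 at 10000 and 16.7 at 5000, and Cox8b 0.84 (14 reads, 0.461 to 1.41), 0.94 and 1.08. Cox6a1 had 6.02 RPKM (4.90 to 7.32), 56.3 and 32.9, and Cox6a2 0.30 (0.0978 to 0.703), 0 and 0. Cox7a2 had 3.55 (2.70 to 4.58), 21.6 and 15.1, and Cox7a1 0.72 (0.373 to 1.26), 1.88 and 1.08. Ndufa4 had 6.56 (5.39 to 7.92), 38.4 and 19.9, and Ndufa4l2 1.08 (0.642 to 1.71), 0 and 0. In each of these pairs the intervals at 100000 cells did not overlap. Ndufa4l2 was the 1 gene with at least 2-fold less at 5000 cells, but its count of 0 there allows up to 1.62 RPKM at 3 reads, or 1.99 by the exact Poisson interval, so that difference was not detectable at this depth. The intervals and limits cover counting error only.

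Cox6b2 had 3.73 RPKM (62 reads, 2.86 to 4.79) at 100000 cells, 26.3 at 10000 and 9.69 at 5000, and Cox6b1 4.46 (74 reads, 3.50 to 5.59), 24.4 and 10.8. Their intervals overlapped in all 3 libraries, although the RNA of Cox6b1 was 6.38 times that of Cox6b2. Cox7b2 was the reverse case: its only window held 0 reads at 100000 cells, which allows up to 0.181 RPKM at 3 reads or 0.222 by the exact Poisson interval, 0 at 10000 and 1 at 5000, against 2.23 RPKM (1.57 to 3.07), 11.3 and 8.62 for Cox7b, while its RNA was the highest of the isoforms. Cox8c had 0.54 RPKM (9 reads), 0 and 0.54, and Cox4i2 0.48 (8 reads), 0.94 and 1.08.

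H3K27me3, given within 1 kb of the start, was low over these genes. At 100000 cells 0 of 90 reached 1 RPKM, against 9.55% of all genes, and 4 reached 0.5, against 28.4%. The member median was 0.125, 0.11 and 0.17 RPKM at 100000, 10000 and 1000 cells, against 0.28, 0.28 and 0.31 over all genes. Over the 11064 genes with RNA of at least 1 RPKM the medians were 0.17, 0.16 and 0.23. The 4 past 0.5 were tissue-specific isoforms: Cox8c with 0.98, 0.79 and 0.31 RPKM at 100000, 10000 and 1000 cells, Cox4i2 with 0.75, 0.91 and 0.45, Ndufa4l2 with 0.72, 0.49 and 0.49, and Cox6a2 with 0.50, 0.76 and 0.45. Their common counterparts were lower at each cell number, by less at 1000 cells: Cox8a had 0.05, 0.06 and 0.21, Cox4i1 0.12, 0.07 and 0.26, Ndufa4 0.14, 0.04 and 0.33, and Cox6a1 0.12, 0.11 and 0.15. The fifth was Ndufaf4, with 0.46, 0.39 and 0.31. Cox7a1, Cox8b, Cox6b2 and Cox7b2 had 0.08, 0.18, 0.03 and 0.17 at 100000 cells, so low RNA and high H3K27me3 did not coincide in all isoforms. At 1000 cells Sdhc, with 0.23, 0.48 and 0.57 RPKM, was the 1 gene at 0.5 or above. Depth could not be recovered for this table, so these values carry no interval.

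H3K9me3 was compared with panH3 at 1000 cells, the 1 comparison with replicates, in the bins of 2 kb that touch a member. The bin table is a sample of the genome, and 29 of its bins touched 25 of the genes. H3K9me3 averaged 0.143, 0.148 and 0.135 RPKM over these bins in replicates a, b and c (0.142 ± 0.00642, SD, n = 3), and panH3 0.494 and 0.505 in a and b (0.499 ± 0.00805, SD, n = 2). H3K9me3 was lower in 24 of 29 bins and higher in 0 (limma on log2(RPKM + 0.1), adjusted p under 0.05), against 24.7% lower and 15.2% higher over all 93575 bins. With each library centred on its median, which moved the median of all bins from -0.10 to 0.08, 23 of 29 bins were lower against 19.8% of all bins, with 21.7% of all bins higher. At an unadjusted limma p under 0.05, 25 bins were lower and 0 higher, against 26798 lower and 17119 higher of all 93575 bins. Weighting recovered reads with voom in limma gave 24 lower and 0 higher, against 27.5% and 17.9% of all bins. Of 35767 bins that touch any gene, 45.6% were lower and 7.19% higher. The labels do not say whether replicates came from separate cultures, so the test measures the spread between these libraries, which may be technical.

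The largest difference was in a bin on Atp5h, which codes for subunit d of ATP synthase (mm9 chr11:115276001-115278000). H3K9me3 was 0.03, 0.07 and 0.13 RPKM there, panH3 0.80 and 0.79, and the log2 difference was -2.38 ± 0.27 (SE; limma adjusted p = 1.96e-07). On Sdha H3K9me3 was 0.03, 0.06 and 0.07 and panH3 0.71 and 0.60 (-2.31 ± 0.26, limma adjusted p = 1.74e-07). On Cox4i1 it was 0.06, 0.13 and 0.04 against 0.63 and 0.72 (-2.16 ± 0.27, limma adjusted p = 6.42e-07). The libraries of the 2 groups did not overlap in these 3 bins, but bins named for a large difference would rarely overlap, so this adds no support. Bins on Atp5g2, Ndufa6, Ndufa11 and Ndufa9 were also among the largest, with log2 differences from -2.20 to -1.98. By complex, 12 of 12 bins on complex I subunits were lower, 1 of 1 on complex II and 4 of 4 on complex III. So were 2 of 2 on common subunits of complex IV and 5 of 5 on ATP synthase. The bins on Uqcr11, Uqcrq, Atp5h and Atp5j2 among them overlapped their gene by less than 1000 bases. The shares lower were 24.7% of all bins and 45.6% of bins that touch any gene, and some complexes had only 1 or 2 bins. Most of the 29 bins (21) lay further than 1 kb from a member start. Of these 17 were lower, and of the 8 nearer bins 7 were.

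**Figure D5:**
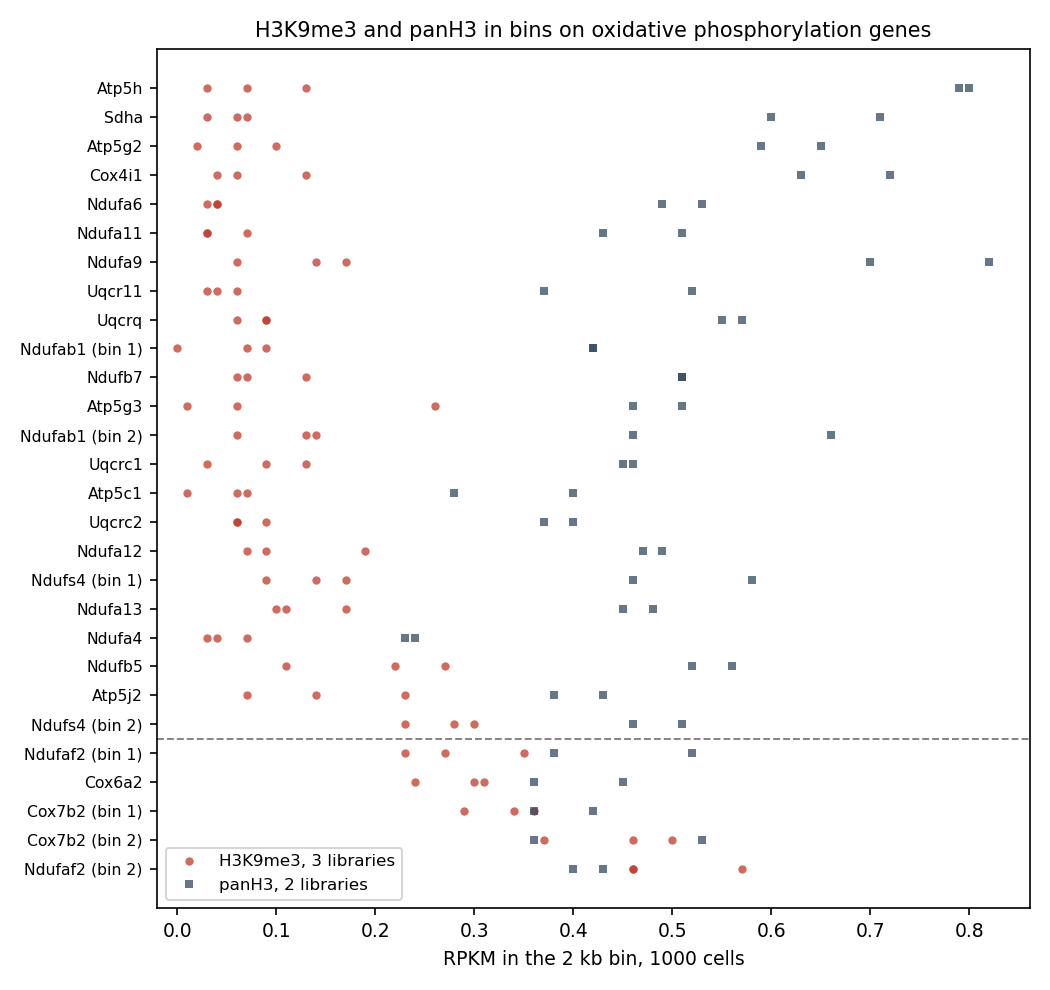
H3K9me3 (3 libraries, circles) and panH3 (2 libraries, squares) at 1000 cells in 28 of the 29 bins of 2 kb on the genes, in RPKM, ordered by log2 difference. The 23 bins above the dashed line were lower in H3K9me3 (limma, adjusted p under 0.05), and the 5 below it, on Ndufaf2, Cox6a2 and Cox7b2, passed in neither direction.

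The 5 bins that passed in neither direction were 2 on Ndufaf2, 2 on Cox7b2 and 1 on Cox6a2. In the Ndufaf2 bin 44816 bases from its start, H3K9me3 was 0.57, 0.46 and 0.46 RPKM and panH3 0.43 and 0.40 (0.21 ± 0.21, limma adjusted p = 0.465). In its other bin H3K9me3 was 0.23, 0.27 and 0.35 against 0.52 and 0.38 (-0.52 ± 0.24, limma adjusted p = 0.0926). On Cox7b2 the log2 differences were -0.19 ± 0.23 and 0.01 ± 0.22 (limma adjusted p = 0.557 and 0.987), with H3K9me3 from 0.29 to 0.50 RPKM and panH3 from 0.36 to 0.53. On Cox6a2 the difference was -0.40 ± 0.24 (limma adjusted p = 0.202), in a bin that also touches Itgad. Whether these bins differ from those of the common subunits was not tested.

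Libraries from more cells were likewise low in these bins: H3K9me3 averaged 0.259 RPKM at 1000000, 0.196 at 100000 and 0.119 at 10000 cells, against 0.414, 0.421 and 0.421 over all bins. H3K27me3 averaged 0.162, 0.160 and 0.210 RPKM at 100000, 10000 and 1000 cells, against 0.428, 0.434 and 0.425 over all bins. RPKM scales each library to its depth, which holds the means over all bins close together between cell numbers. The wider range over these few bins therefore cannot be judged against them. There was 1 library for each of the larger inputs and no test.

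Genes around the respiratory chain, from fixed lists, were read in the same libraries. RNA of at least 1 RPKM was found in 50.2% of all genes. Of 12 electron carriers and carriers of adenine nucleotides, 10 reached it, with a median of 18.2. Slc25a5 and Slc25a4, which exchange ADP and ATP, had 122.1 and 49.9, and the phosphate carrier Slc25a3 55.9. Slc25a31, a testis form of the ADP and ATP carrier, had 0.26. It was the 1 gene of these 12 with H3K27me3 of at least 1 RPKM at 100000 cells (1.79). That count is near the share over all genes (9.55%), and Slc25a4 lay just under the threshold at 0.98. Of 26 assembly factors measured outside the symbol rule, 24 reached 1 RPKM, with a median of 6.53. Nubpl, which supplies iron-sulphur clusters to complex I, had 47.5, Atpif1, the inhibitor of ATP synthase, 38.1 and Cox10, needed for heme a, 23.6, while Surf1, a factor of complex IV assembly, was listed at 0 with H3K4me3 of 5.36 RPKM at 100000 cells. Of 17 transcriptional regulators 14 reached 1 RPKM, with Nrf1 at 36.0, Yy1 at 31.6 and Gabpa at 20.1, and the lowest was the coactivator Ppargc1a at 0.01.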

How the data were processed

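BWA and SAMtools are named in the submitters' processing notes, with mm9 as the build; versions, read counting and filters are not given there. The authors deposited RPKM values with 1 column for each library, as the file headers state: H3K9me3, H3K27me3 and panH3 in 98085 bins of 2 kb, H3K4me3 in 74866 start-site windows of 1 kb, and H3K27me3 (within 1 kb of the start) and RNA (over exons) per transcript. Since no unit heads the panH3 columns, RPKM was assumed for them. Other columns that the authors deposited give exon length in bases. Of the start-site table, 2 columns belong to another series and were set aside. Gene coordinates beyond 67 Mb are rounded to steps of 8 bases.

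Groups and replicate letters came from the labels. Of several rows for a symbol, that with the highest RNA, or the highest mean over the libraries of a mark, was taken. Depth was estimated from the value of 1 read; it was about 13.4 to 45.5 M reads for H3K9me3 and 42.0 and 42.2 M for panH3 in bins, and was not recovered for the gene table. H3K9me3 and panH3 at 1000 cells were compared with limma 3.58.1 (R 4.3.3) on log2(RPKM + 0.1), over bins above 0 in at least 1 library, with robust moderation, an intensity trend and Benjamini-Hochberg adjustment, two-sided, after tests on simulated data; bins overlapping a gene by at least 1 base were reported. H3K4me3 folds used log2(RPKM + 1), and RNA ratios plain RPKM. Python 3.11.15 with numpy 2.4.6, pandas 2.3.3 and matplotlib 3.10.9 was used.

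The rule for named genes took all isoform pairs, the 2 highest and 2 lowest by RNA in each complex, all under 1 RPKM, the 5 at each end of H3K4me3 and of its change with cell number, the 5 highest in H3K27me3, the 8 bins with the largest differences, and the 3 highest and the lowest of other lists; further genes were chosen after their values were seen. The values of 1 gene that the rule names are not reported here. Genes, lists and tests were chosen with earlier results of these data known. Alternatives covered pseudocounts, thresholds, filters, centring, rows per gene, single libraries left out, a replicate block and recovered reads.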

Additional observations from a re-analysis of the deposited data

How the results depend on the processing

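The count of 24 of 29 bins with lower H3K9me3 stayed within 1.5 times under every alternative run. It was 24 with pseudocount 1, 23 with centred libraries, 23 with no filter on low values and 24 with voom weights on recovered reads. A mean of at least 0.2 RPKM left 25 bins, of which 20 were lower. An overlap of at least 1000 bases also left fewer bins and gave 20. Leaving out 1 library gave 22 to 24, and no setting gave a higher bin. Over these fits 16.6% to 27.7% of all bins were lower. Off chromosomes 1, 8 and 11, an alternative chosen after seeing the data, 18 of 23 bins were lower. Letters a and b occur in both groups, but no label pairs them and their deviations correlated at -0.00955 over bins; with a replicate block 24 bins were lower.

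Counts set by a threshold moved with it. The 43 genes with H3K4me3 of at least 5 RPKM became 2 at 10 RPKM and 79 at 2 RPKM. The 67 genes with 2-fold more H3K4me3 at 5000 cells became 44 with centred libraries, while the share of all genes went from 28.3% to 14.2%. The 0 genes with H3K27me3 of at least 1 RPKM became 4 at 0.5 RPKM. The median log2 RNA difference of the isoforms was -5.68 with pseudocount 0.1 and -4.49 with pseudocount 1, as it includes genes listed at 0; 8 of 8 pairs kept their direction. At 10000 cells 1 read of H3K4me3 is worth 0.938 RPKM, which limits the low isoforms there.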
